A study of Mus musculus with 28 samples.

Results

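Oncofetal genes are made in the fetal liver, are largely shut off in the adult and are often made again in liver tumours, and several of the best-known ones are imprinted, which means that only the copy from 1 parent is active. The genes described here were Dlk1, Meg3, Rian, Mirg, H19, Igf2, Peg3, Afp and Gpc3. They were found on the array through the RefSeq accession that the scanner files give for each probe, and each probe is shown apart. Of these 9 genes, 7 had a matched probe, with 11 matched probes among 55681 probes in all: 3 for Meg3, 2 each for Dlk1 and Peg3, and 1 each for Mirg, Igf2, Afp and Gpc3. No probe was matched to H19 or Rian, which were not analysed here.

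The samples were livers of 28 male mice from 3 feeding experiments with phenobarbital (PB), a barbiturate that induces drug-metabolising enzymes in the liver through the nuclear receptor CAR, with 1 array per animal. The CD-1 experiment, in an outbred stock, compared 7 days of PB at 1500 ppm in the diet with none in 4 animals each. The hCAR/hPXR experiment, in mice whose CAR and PXR are humanized, compared 7 days at 1000 ppm with none in 7 animals each. The C3H/HeNCrlCrlj experiment (C3H from here on) compared 27 weeks at 500 ppm with none in 3 animals each, and both of its groups had first been injected once with the liver carcinogen diethylnitrosamine at 90 mg/kg. Strain, dose, time and carcinogen therefore changed together between C3H and the other experiments, and strain and dose between CD-1 and hCAR/hPXR. The labels name whole liver and do not say whether a C3H sample was taken from a tumour or from the tissue around one.

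Dlk1, Meg3, Rian and Mirg lie in 1 imprinted region of mouse chromosome 12. Dlk1, which codes for a membrane protein related to the Notch ligands and marks fetal hepatoblasts, is expressed from the paternal copy, as are Rtl1, derived from a retrotransposon, and Dio3, an enzyme that inactivates thyroid hormone. Meg3, Rian and Mirg are long noncoding RNAs of the maternal copy and carry many microRNAs and small nucleolar RNAs. In the other imprinted domains, Igf2 codes for a fetal growth factor, H19 is the noncoding RNA beside it, and Peg3 codes for a zinc finger protein made from the paternal copy. Afp codes for alpha-fetoprotein, the main serum protein of the fetus and a marker of liver cancer. Gpc3 codes for glypican-3, a cell-surface heparan sulfate proteoglycan of fetal liver and of many liver cancers.

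On mouse build GRCm38.p6, Dlk1 spans chr12:109452485-109463336, and Meg3 spans chr12:109540996-109571729 and begins 88.5 kb further on. Mirg spans chr12:109734981-109749458 and begins 282.5 kb from the Dlk1 start. Igf2 lies at chr7:142650768-142666816, Peg3 at chr7:6703892-6730462, Afp at chr5:90490714-90508907 and Gpc3 at chrX:52272426-52613974. The files give no position within the gene for a probe, so which exon a probe reads is not known here.

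Because the transcripts of the chromosome 12 region and Afp and Gpc3 gave the results below, the 250 bases before an annotated start of Meg3, Mirg, Afp and Gpc3 are shown 5′ to 3′ on the gene's strand, from RefSeq on GRCm38.p6. Each window was searched on both strands for letters that several transcription factors are known to read, and matches are in capitals. The TATA box was searched as TATAAA. The half-site of nuclear receptors such as CAR was searched as AGGTCA. The site of the beta-catenin partners of the TCF/LEF family was searched as CTTTGAT. The half-site of HNF1, a liver factor, was searched as GTTAAT. The window of Meg3 is chr12:109540746-109540995, that of Mirg chr12:109734731-109734980, that of Afp chr5:90490464-90490713, all on the plus strand, and that of Gpc3 is chrX:52613975-52614224 on the minus strand.
Meg3: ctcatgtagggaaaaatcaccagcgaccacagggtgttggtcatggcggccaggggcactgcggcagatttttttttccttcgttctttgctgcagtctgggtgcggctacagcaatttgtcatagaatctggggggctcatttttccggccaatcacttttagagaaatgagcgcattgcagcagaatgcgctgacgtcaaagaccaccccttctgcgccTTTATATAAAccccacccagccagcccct
Mirg: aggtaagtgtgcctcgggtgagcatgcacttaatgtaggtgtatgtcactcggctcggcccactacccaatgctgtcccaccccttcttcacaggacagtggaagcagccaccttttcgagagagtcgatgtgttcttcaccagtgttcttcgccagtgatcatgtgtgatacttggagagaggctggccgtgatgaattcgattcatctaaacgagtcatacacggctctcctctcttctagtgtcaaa
Afp: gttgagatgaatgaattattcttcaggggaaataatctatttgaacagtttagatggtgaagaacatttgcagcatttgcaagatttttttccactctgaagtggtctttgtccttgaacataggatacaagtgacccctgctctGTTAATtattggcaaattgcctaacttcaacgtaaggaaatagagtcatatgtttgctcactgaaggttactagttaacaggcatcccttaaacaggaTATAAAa
Gpc3: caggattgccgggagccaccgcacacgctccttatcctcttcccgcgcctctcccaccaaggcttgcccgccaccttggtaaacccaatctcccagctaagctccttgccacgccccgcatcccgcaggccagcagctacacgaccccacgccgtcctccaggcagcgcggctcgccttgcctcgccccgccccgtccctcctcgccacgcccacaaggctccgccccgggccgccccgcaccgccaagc
The Meg3 window holds TATAAA on each strand in 1 overlapping stretch, starting 25 bases before the annotated start on the sense strand. The Afp window holds TATAAA 7 bases and GTTAAT 105 bases before its start. A second annotated start of Meg3, with the window chr12:109545148-109545397, is not shown. It has TGACCT, which is AGGTCA on the other strand, 141 bases before that start. The Dlk1 window, also not shown, held no match. TATAAA was found in 12.37% and GTTAAT in 6.43% of 32851 windows of this length, AGGTCA in 14.02% and CTTTGAT in 3.21%. The Gpc3 window had the highest GC content of the 4 (71.6%, with 25 CpG) and the Afp window the lowest (36.0%, with 1 CpG), against a median of 52.4% and 6 CpG over all windows. A match is a string of letters and not a measured binding site.

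Meg3, Rian and Mirg together overlap 14 microRNA hairpins with 28 mature microRNAs in RefSeq, of which 19 mature microRNAs lie in Mirg and 3 in Meg3. These small RNAs were not measured on this array. They are shown because the Meg3 and Mirg transcripts that host them rose in C3H mice. The capitals mark the seed, bases 2 to 8, which pairs with target RNAs. The first 2 lines are from Meg3 and the last 3 from Mirg.
mmu-miR-770-5p: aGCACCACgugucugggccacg
mmu-miR-770-3p: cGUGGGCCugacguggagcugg
mmu-miR-453: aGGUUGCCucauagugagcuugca
mmu-miR-496a-5p: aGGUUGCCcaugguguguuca
mmu-miR-410-3p: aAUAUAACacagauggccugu
miR-453 and miR-496a-5p have the same seed. This was the only seed shared among the 31 different seeds of the mature microRNAs in Meg3, Rian, Mirg, H19 and Igf2.

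Levels are log2 signals with the 75th percentile of each array set to 0, and they are compared between groups and never between probes. The scanner software marks each spot that is well above background, and between 41.3% and 70.5% of probes were so marked on an array. The arrays of CD-1 mice had weaker signals: their 99th percentile lay between 3999.95 and 6441, against 22299 to 48006 elsewhere, and the median CV of replicate spots was 11.04 to 21.2% against 4.73 to 11.6%. The median probe read between -1.73 and -1.30 on the CD-1 arrays and between -3.86 and -2.86 elsewhere, in the deposited log2 values. A dim probe can therefore read higher on a CD-1 array, which limits comparisons of level between CD-1 and the other strains. All CD-1 control arrays lay on 1 slide and all CD-1 PB arrays on another, so slide and PB cannot be told apart there. For hCAR/hPXR mice, the slide that held all 7 controls held PB animal 1, and PB animals 2 to 7 were on a second slide. Values with the slide as a block therefore rest on PB animal 1 against the controls. The 6 C3H arrays shared 1 slide. The CAR target gene Cyp2b10, a cytochrome P450, was induced in all 3 experiments, by 6.66 ± 0.47 (SE) in CD-1, 4.49 ± 0.20 in hCAR/hPXR and 5.74 ± 0.25 in C3H mice on the log2 scale.

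Dlk1, Meg3, Mirg and Afp rose with PB in C3H livers, and Gpc3 was well above background there only with PB. Meg3, Mirg, Afp and Peg3 rose in hCAR/hPXR livers, though not with the slide as a block, and no tested member passed in CD-1 livers. In C3H mice 5 member probes of 4 genes (Dlk1, Meg3, Mirg and Afp) were well above background on all arrays of both groups. These 5 rose by 3.77 to 4.60 on the log2 scale, with every PB animal above every control. Of all probes measured on all C3H arrays of both groups 5.89% rose, and 15.8% had every PB animal above every control. The other 3 member probes (Meg3 A_52_P196568, Dlk1 A_55_P2105371 and Gpc3) were measured in the PB group and on no control array, so they could enter the test only by being high with PB and are given as lower bounds. Among all tested C3H probes, such ones included, 7.21% rose. Of the hCAR/hPXR member probes 3 (Meg3 A_51_P455997, Mirg and Afp) were measured on all arrays of both groups and rose by 0.90 to 1.86, where 36.7% of all probes so measured rose. A further 2 (Meg3 A_55_P2033407 and Peg3 A_52_P235861) were measured on all PB arrays and some control arrays and rose by 1.73 and 1.06, where 33.9% of all tested probes rose. With the slide as a block 0 of the 5 passed by limma and 1 had an unadjusted p under 0.05, where 1.17% of all tested probes rose. In CD-1 mice 0 of 4 tested member probes passed by limma and 2 had an unadjusted p under 0.05, where 7.88% of all tested probes passed. The sizes in C3H mice depended on the background correction. For the 5 probes measured in both groups they were 3.12 to 3.61 with quantile normalization and 2.49 to 3.70 with normexp, which adds an offset of 50 to the signal, and all 5 still passed (adjusted p of at most 0.0436 and 0.0332).

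**Figure D1:**
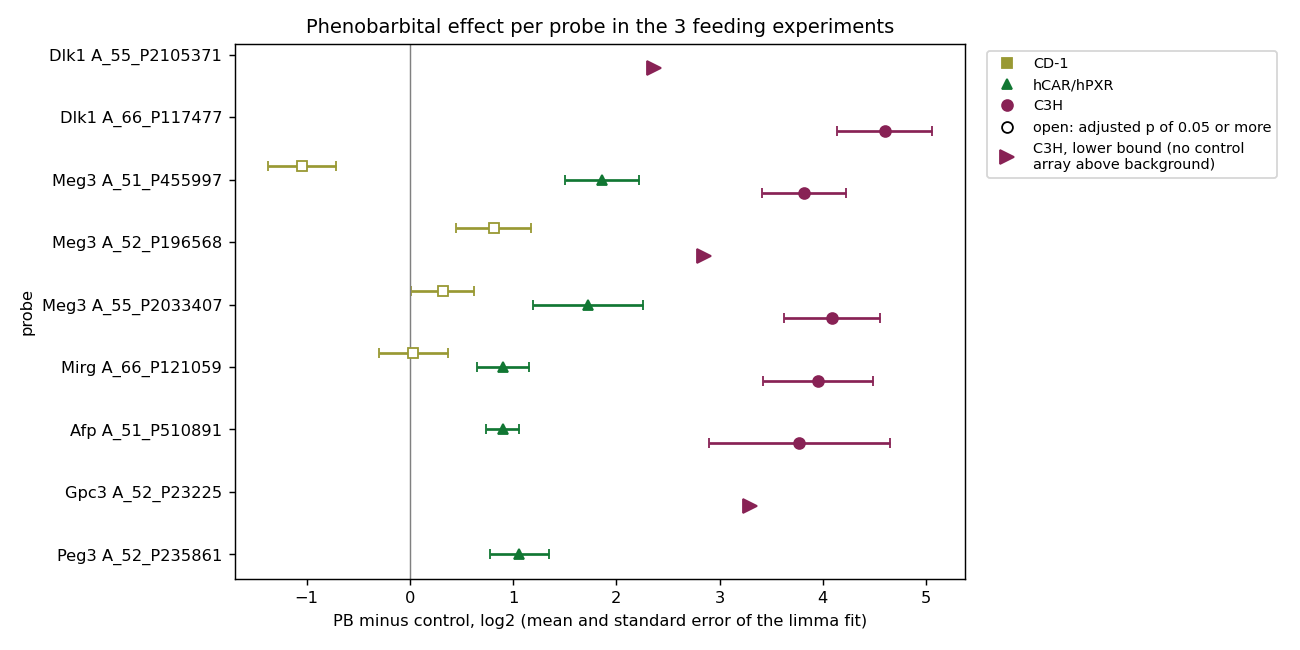
PB minus control (log2, x axis) with the standard error of the limma fit for each tested member probe (y axis), as squares for CD-1, triangles for hCAR/hPXR and circles for C3H mice. Filled symbols have an adjusted p under 0.05, and arrowheads are lower bounds in C3H mice where no control array was above background. The 5 measured C3H values lie between 3.77 and 4.60, the 5 hCAR/hPXR values between 0.90 and 1.86, and the 4 CD-1 values between -1.04 and 0.81.

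In the C3H PB group 8 of 11 member probes were well above background on all arrays, against 5 in the C3H controls, while the share of all probes so measured was 39.63% and 39.24%. For hCAR/hPXR mice these numbers were 5 with PB and 3 without (43.08% and 43.61% of all probes). For CD-1 mice they were 4 and 3 (54.07% and 42.72% of all probes). The remaining probes gave only a bound in those groups, and a probe was tested only where all arrays of 1 or both groups measured it. In these bulk samples, more cells of a type that makes a transcript and more transcript per cell cannot be told apart.

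Meg3, the maternal noncoding RNA, rose in C3H mice. Probe A_51_P455997 read 1.62, 2.23 and 1.80 in the controls and 4.93, 5.63 and 6.54 with PB. The lowest PB value lay 2.70 above the highest control value, and the rise was 14.1-fold (3.82 ± 0.40, limma adjusted p = 0.00415, n = 3 per group). Probe A_55_P2033407 read -2.23, -1.55 and -2.07 in controls and 1.16, 2.24 and 3.03 with PB, a 17.0-fold rise (4.09 ± 0.46, limma adjusted p = 0.00528, 2.54 on the log2 scale with normexp). Probe A_52_P196568, made to a different RefSeq transcript of the gene, was not well above background on any control array. It therefore entered the C3H test only by being high with PB. With PB it read -0.73, -0.39 and 0.37, and its rise was at least 7.21-fold (limma adjusted p = 0.00683). With normexp its fitted difference was 0.95 on the log2 scale (adjusted p = 0.0138), which lies under that bound. Such a lower bound is given where 1 group was below that mark on all its arrays, and it sets the lowest so-marked signal of each array in place of any dimmer value. It rests on the background correction of the scanner software and need not hold with normexp. All 3 probes placed the PB animals in the same order, animal 1 lowest and animal 3 highest.

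In the hCAR/hPXR animals A_51_P455997 ranged from -0.13 to 1.41 with a median of 0.45 in controls, and from 1.11 to 3.02 with a median of 2.85 with PB. The groups overlapped through PB animals 1 and 2, at 1.37 and 1.11, while PB animals 3 to 7 lay between 2.70 and 3.02. The rise was 3.62-fold (1.86 ± 0.36, limma adjusted p = 0.000605, n = 7 per group). With the slide as a block it was 0.81 ± 0.67 (adjusted p = 0.634), and did not pass. Probe A_55_P2033407 ranged from -5.22 to -2.19 in controls, 5 of 7 of them well above background, and from -3.30 to -0.36 with PB. It rose by 1.73 ± 0.53 (limma adjusted p = 0.0130, blocked 1.22 ± 1.10, adjusted p = 0.674). Probe A_52_P196568 was well above background on 1 control and 4 PB arrays and was not tested, with means of -4.15 and -3.29.

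In CD-1 mice the Meg3 probes gave values of both signs, and none passed. A_51_P455997 read 0.17, -0.40, -0.26 and 0.10 in controls and -0.84, -0.66, -1.02 and -2.03 with PB. Every PB animal lay below every control, as for 12.2% of all tested probes, and the difference of -1.04 ± 0.33 missed the threshold (limma adjusted p = 0.0705, n = 4 per group). It passed with quantile normalization (adjusted p = 0.0467) and where only probes measured on all arrays of both groups were tested (adjusted p = 0.0368). A_52_P196568 had the higher mean with PB, with a mean of -0.38 ± 0.52 (SD, n = 4) in controls and 0.43 ± 0.62 with PB, overlapping groups and a difference of 0.81 ± 0.36 (limma adjusted p = 0.174). A_55_P2033407 differed by 0.32 ± 0.30 (limma adjusted p = 0.512).

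The order of the group levels also depended on the probe. On A_51_P455997 the C3H PB group was highest (5.70 ± 0.81, SD, n = 3), followed by hCAR/hPXR PB (2.42), C3H control (1.88), hCAR/hPXR control (0.56), CD-1 control (-0.10) and CD-1 PB (-1.14). The hCAR/hPXR PB group overlapped the C3H controls, and the hCAR/hPXR controls overlapped the CD-1 controls. On A_52_P196568 the 3 highest groups were CD-1 PB (0.43), C3H PB (-0.25) and CD-1 control (-0.38), whose neighbours in this order overlapped. All other groups lay at -3.29 or lower, and CD-1 and hCAR/hPXR livers did not overlap on this probe. On A_51_P455997 their controls overlapped. The different scale of the CD-1 arrays limits such comparisons of level between strains.

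Mirg, the noncoding RNA at the far end of the region's microRNA cluster, also rose in C3H mice. It read -1.19, -0.64 and -0.92 in controls and 1.82, 3.23 and 4.06 with PB. The lowest PB animal lay 2.45 above the highest control, and the rise was 15.5-fold (3.95 ± 0.53, limma adjusted p = 0.00901), again with animal 1 lowest and animal 3 highest. It was 2.82 on the log2 scale with normexp and 4.56 without PB animal 1. Mirg in hCAR/hPXR mice ranged from -2.71 to -1.27 (median -2.03) in controls and from -1.69 to -0.32 (median -1.18) with PB. These groups overlapped, with a rise of 0.90 ± 0.25 (limma adjusted p = 0.00683) that was 0.34 ± 0.49 with the slide as a block (adjusted p = 0.807). In CD-1 mice the controls (0.78 ± 0.50, SD, n = 4) and PB animals (0.81 ± 0.47) differed by 0.03 ± 0.33 (limma adjusted p = 0.957). The CD-1 level of Mirg lay above that of the C3H controls with no overlap in either CD-1 group, and below that of the C3H PB group. The same limit on comparing levels between strains holds here.

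Dlk1, the paternal protein-coding gene at the start of the region, rose in C3H mice on the probe measured in both groups. A_66_P117477 read -2.17, -2.35 and -2.17 in controls and 2.64, 1.28 and 3.20 with PB. The controls lay within 0.19 of each other, and the rise was 24.2-fold (4.60 ± 0.46, limma adjusted p = 0.00349, 2.49 on the log2 scale with normexp). A_55_P2105371 was not well above background on any control array, so it entered the test only by being high with PB. It read -0.36, -1.90 and 0.05 with PB, a rise of at least 5.14-fold (limma adjusted p = 0.0142). Leaving out control animal 1 or 3 took the adjusted p of this probe to 0.0540 and 0.0644. With normexp background correction its fitted difference was 0.70 on the log2 scale (limma adjusted p = 0.0872), which lies under the 5.14-fold bound. Both Dlk1 probes were lowest in PB animal 2, whereas the Meg3 and Mirg probes were lowest in PB animal 1.

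Outside C3H mice Dlk1 was near background. A_66_P117477 was not well above background on any CD-1 array, and in hCAR/hPXR mice it was so on 4 of 7 control and 3 of 7 PB arrays, with means of -3.21 and -3.25. A_55_P2105371 was well above background on 1 of 4 control and 3 of 4 PB arrays in CD-1 mice (means -2.31 and -2.06). It was measured on 1 of 14 arrays of hCAR/hPXR mice, that of PB animal 5, at -1.79. Neither probe was tested in these experiments.

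**Figure D2:**
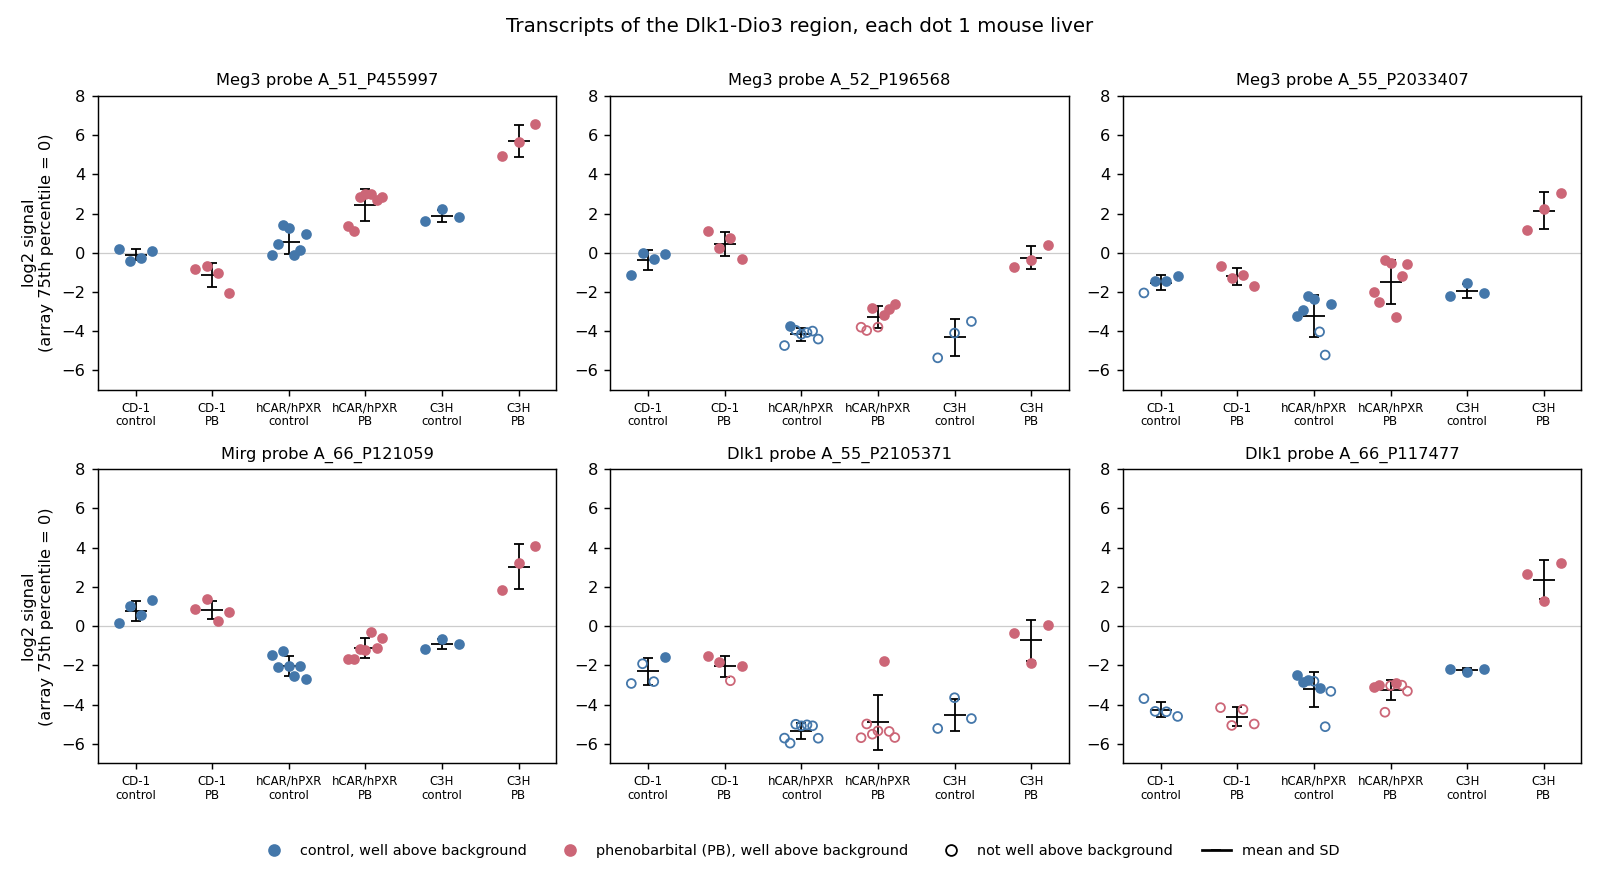
Log2 signal (y axis, array 75th percentile set to 0) of each Meg3, Mirg and Dlk1 probe in every mouse of the 6 groups (x axis). Filled dots are arrays on which the probe was well above background, open dots are arrays on which it was not, and bars are the mean and SD. On each panel the 3 C3H PB animals lie above the 3 C3H controls, as for 16.9% of all tested C3H probes. For Meg3 A_52_P196568 and Dlk1 A_55_P2105371 these controls are all below background. The CD-1 groups differ in level from probe to probe.

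None of the tested neighbours of these genes rose in C3H mice, but all of those tested lay outside the stretch from Dlk1 to Mirg. They were Yy1, Slc25a29, Wars and Wdr25, at -659.5 to -424.0 kb from the Dlk1 start. Begain (from -420.3 kb), Rtl1 (from 112.4 kb) and Dio3 (from 826.7 kb) were not tested in C3H mice. Of 7 listed, 4 were tested in C3H mice, 0 rose and 1 fell, with a median of -0.08 against -0.05 over all tested probes, of which 6.87% fell. The gene that fell was Slc25a29, a mitochondrial carrier of basic amino acids, at -1.29 ± 0.33 (limma adjusted p = 0.0491). Rtl1 and Dio3, the other paternal genes, were not well above background on any C3H or hCAR/hPXR array. In CD-1 mice Rtl1 was measured on all arrays and differed by 0.77 ± 0.41 (limma adjusted p = 0.250), and Dio3 was measured on 1 control and 3 PB arrays. Among hCAR/hPXR livers 3 of 4 tested neighbours rose (Wdr25 by 0.72, Wars by 0.58 and Slc25a29 by 0.49), with a median of 0.53 against 0.13 over all probes, and 0 passed with the slide as a block. In CD-1 mice 0 of 5 passed by limma, and 0 at an unadjusted p under 0.05 (median 0.11 against -0.01). Of all tested hCAR/hPXR probes 33.9% rose.

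**Figure D3:**
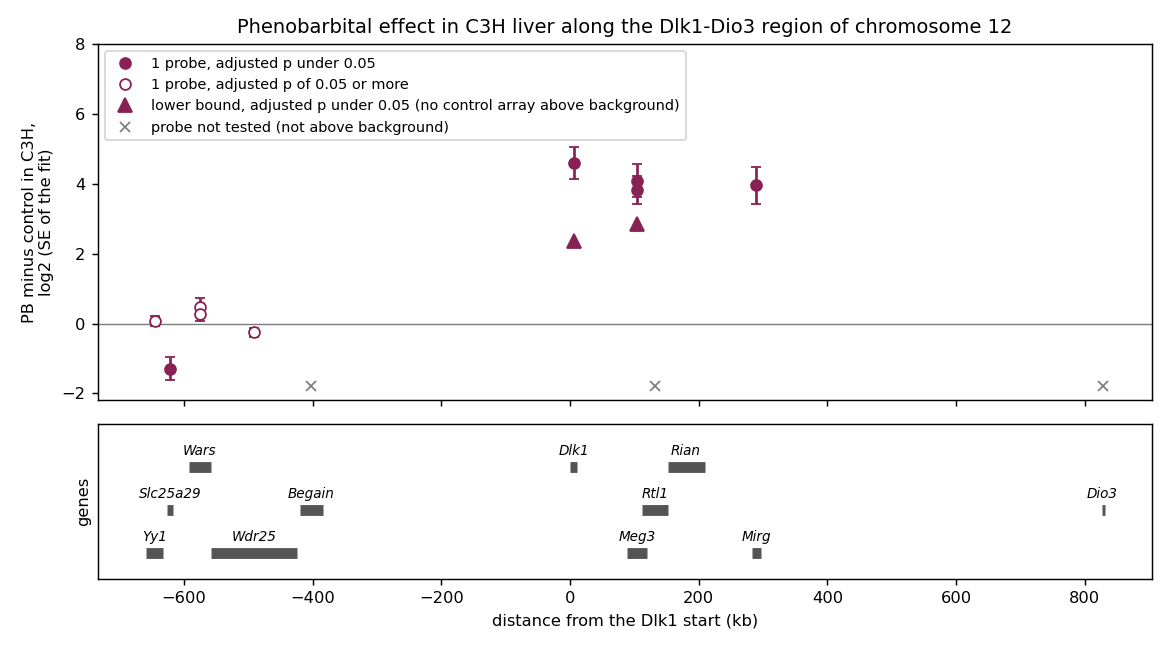
The upper panel gives PB minus control in C3H livers (log2, with the standard error of the fit) for each probe, placed at the middle of its gene, and the lower panel gives the genes, both against distance from the Dlk1 start in kb. Filled circles have an adjusted p under 0.05 and crosses are probes not tested. Triangles are lower bounds for the Meg3 and Dlk1 probes with no control array above background. The 4 measured probes of Dlk1, Meg3 and Mirg lie between 3.82 and 4.60, and the tested neighbours, all before Dlk1, between -1.29 and 0.49. No probe was matched to Rian.

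Afp was high in C3H livers, lower in hCAR/hPXR livers and not well above background on any CD-1 array. In C3H mice it read -0.62, 1.75 and -0.77 in controls and 2.43, 4.998 and 4.24 with PB. Control animal 2 lay above the other controls and 0.67 below the lowest PB animal. The rise was 13.6-fold (3.77 ± 0.88, limma adjusted p = 0.0389), and the adjusted p was 0.105 to 0.125 when control animal 1 or 3 or PB animal 2 or 3 was left out and 0.121 without the low-signal filter. The value ran from 3.22 without PB animal 2 to 4.59 without control animal 2, was 4.50 without PB animal 1, and was 3.08 with normexp. Afp in hCAR/hPXR mice ranged from -1.84 to -0.87 (median -1.13) in controls and from -0.73 to 0.23 (median -0.41) with PB. All 7 PB animals lay above all 7 controls, as for 11.9% of all tested probes. The rise was 1.86-fold (0.90 ± 0.16, limma adjusted p = 0.000317), and with the slide as a block 0.80 ± 0.32 (adjusted p = 0.267). The C3H controls (0.12 ± 1.42, SD, n = 3) overlapped the hCAR/hPXR PB group (-0.32 ± 0.31, n = 7).

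Gpc3 was measured on all arrays of the C3H PB group only. Its PB animals read -1.65, -0.52 and 2.76, a 21.3-fold spread, the widest among the 8 member probes measured on every array of that group. No C3H control array was well above background, so Gpc3 entered the test only by being high with PB. The rise was at least 9.80-fold (3.29 on the log2 scale, limma adjusted p = 0.0448). Without PB animal 3 the bound was 4.03-fold, and without PB animal 1 it was 18.6-fold. The adjusted p was 0.0546 to 0.137 when any 1 animal other than PB animal 1 was left out and 0.136 without the low-signal filter. With normexp background correction the fitted difference was 1.40 on the log2 scale (limma adjusted p = 0.169), which lies under the 9.80-fold bound. In CD-1 mice 2 of 4 PB arrays, at -1.26 and -2.33, and 0 of 4 control arrays were well above background, and in hCAR/hPXR mice none was.

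Igf2 passed the low-signal filter nowhere. In CD-1 mice the controls read -1.24, -1.69, -2.83 and -1.87, with 3 of 4 well above background, and the PB animals read -4.66, -4.38, -4.39 and -4.18, with 0 of 4. Every PB animal lay below every control, as for 12.2% of all tested CD-1 probes, and the 2 groups were on different slides. No test was made there. Against the lowest signals that could be measured on the PB arrays, the control mean was 2.04-fold higher. This is not a lower bound, because control animal 3 entered that mean with a value below background. No hCAR/hPXR array measured Igf2, and of the C3H arrays 1 did, that of PB animal 3 at -2.57.

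Peg3 was not well above background on any C3H array with either of its probes. The probe A_52_P235861 in hCAR/hPXR mice was well above background on 3 of 7 control and 7 of 7 PB arrays. It ranged from -4.25 to -2.23 (median -3.32) in controls and from -2.68 to -1.42 (median -2.30) with PB, with overlap, and rose by 1.06 ± 0.29 (limma adjusted p = 0.00590). With the slide as a block the value was 0.53 ± 0.57 (adjusted p = 0.736). The second probe, A_55_P2163319, was not well above background on any hCAR/hPXR array. In CD-1 mice A_52_P235861 was measured on 1 array and A_55_P2163319 on 2.

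**Figure D4:**
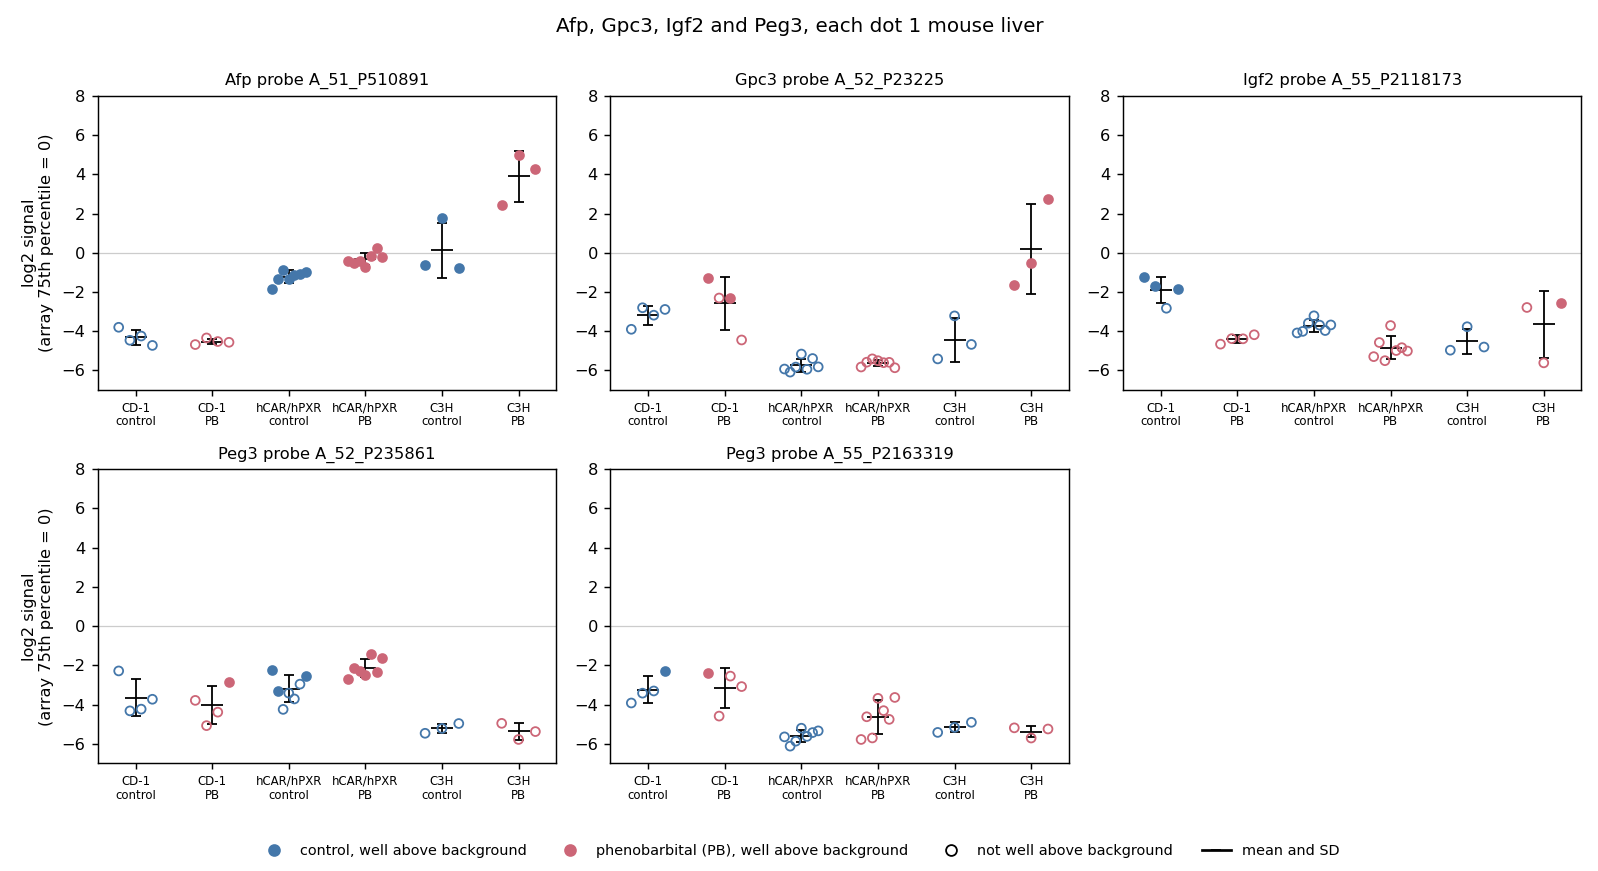
Log2 signal (y axis, array 75th percentile set to 0) of the Afp, Gpc3, Igf2 and Peg3 probes in every mouse of the 6 groups (x axis). Filled dots are well above background, open dots are not, and bars are the mean and SD. Afp and Gpc3 are higher in all 3 C3H PB animals than in the C3H controls, as for 16.9% of all tested C3H probes. The C3H controls of Gpc3 are all below background. Igf2 is well above background in 3 CD-1 controls and 1 C3H PB animal.

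The differences of the PB effect between experiments were tested as interactions in 1 fit of all 28 arrays. Meg3 A_51_P455997 and Mirg were measured on every array of the 3 experiments, and Afp on every array of 2. The PB effect was larger in C3H than in CD-1 mice by 4.86 ± 0.67 for Meg3 A_51_P455997 (limma adjusted p = 2.1e-05) and by 3.92 ± 0.59 for Mirg (limma adjusted p = 7.48e-05), where 8.84% of all probes had a larger effect in C3H. It was larger in C3H than in hCAR/hPXR mice by 1.96 ± 0.59 for Meg3 A_51_P455997 (limma adjusted p = 0.0378), 2.87 ± 0.59 for Afp (0.00265) and 3.05 ± 0.53 for Mirg (0.000454), where 3.92% of all probes had a larger effect in C3H. This Meg3 difference lost its call with quantile normalization, without the low-signal filter and in 8 of 20 fits with 1 animal left out (adjusted p 0.0502 to 0.150). Between hCAR/hPXR and CD-1 mice Meg3 A_51_P455997 differed by 2.90 ± 0.55 (limma adjusted p = 0.000582) and Mirg by 0.87 ± 0.49 (adjusted p = 0.185), where 18.1% of all probes had a larger effect in hCAR/hPXR. With the hCAR/hPXR arrays of 1 slide only, which leaves PB animal 1, the Meg3 difference was 1.86. Slide effects cannot be told apart from the PB effects of CD-1 and hCAR/hPXR mice in these comparisons.

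The remaining member probes had arrays below background in 1 or more of the groups compared, so their fitted differences rest in part on signals below background. Against CD-1 mice 6 of 6 of them had a larger fitted effect in C3H, where 8.84% of all tested probes did. Against hCAR/hPXR mice 4 of 6 did, where 3.92% of all tested probes did. Gpc3 and Dlk1 A_55_P2105371, and against hCAR/hPXR mice Meg3 A_52_P196568, entered only by being high in the C3H PB group. For these probes the direction of the difference was therefore largely set by the entry rule. Meg3 A_52_P196568, at 3.26 ± 0.58 against CD-1 mice, lost its call with quantile normalization (1.86, adjusted p = 0.0859) and with normexp (0.47, adjusted p = 0.264), and against hCAR/hPXR mice with normexp (0.79, adjusted p = 0.0564). The probes that did not pass against hCAR/hPXR mice were Meg3 A_55_P2033407 at 2.36 ± 0.81 (adjusted p = 0.0649) and Peg3 A_52_P235861 at -1.22 ± 0.61 (adjusted p = 0.222). The hCAR/hPXR arrays of 1 slide only, a setting chosen after seeing the data, leave PB animal 1. There Meg3 A_51_P455997 differed by 1.86 between hCAR/hPXR and CD-1 mice and was no longer called. Between C3H and hCAR/hPXR mice Afp (2.97) and Gpc3 (4.72) were no longer called.

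Among 32 other imprinted genes, 7 of 20 tested rose in C3H mice and 0 fell, with a median of 0.12 against -0.05 over all probes. The 4 with the smallest adjusted p were Igf2r, the receptor that clears IGF2, at 1.43 ± 0.20 (limma adjusted p = 0.00972), Impact, a regulator of protein synthesis, at 1.01 ± 0.14 (0.0100), Asb4, a subunit of a ubiquitin ligase, at 1.90 ± 0.32 (0.0175) and Snrpn, a splicing protein, at 0.91 ± 0.18 (0.0264). In hCAR/hPXR mice 12 of 21 rose and 2 fell (median 0.34 against 0.13), led by Mest at 1.14 ± 0.10 and Impact at 1.25 ± 0.14, and 1 was still higher in the slide-blocked fit. Of all tested probes 7.21% rose in C3H mice, and 33.9% rose and 22.1% fell in hCAR/hPXR mice. The probes of Plagl1 were called in opposite directions in both of these experiments. In CD-1 mice 0 of 19 passed by limma and 3 had an unadjusted p under 0.05 (median 0.10 against -0.01). Of CD-1 calls over all probes 23.0% were higher, and 33.5% with quantile normalization.

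In the IGF axis, which carries the signal of IGF2 and its adult relative IGF1, 2 of 14 tested genes rose and 3 fell in C3H mice (median -0.35). Igf2r and Irs1, an adaptor of the insulin and IGF1 receptors (1.20 ± 0.24), rose. Irs2, the second adaptor, fell by 0.99 ± 0.20 (limma adjusted p = 0.0258), and Igf1 fell by 1.73 ± 0.38 on its brightest probe (limma adjusted p = 0.0337). In hCAR/hPXR mice 2 of 14 rose and 1 fell (median 0.11), the last being Igfbp7 at -1.66 ± 0.24, and 0 passed with the slide as a block. In CD-1 mice 0 of 10 rose and 2 fell (median -0.68), Irs2 at -2.02 ± 0.42 and Insr at -1.22 ± 0.28. Of all tested probes 7.21% rose and 6.87% fell in C3H, 33.9% and 22.1% in hCAR/hPXR, and 1.81% and 6.06% in CD-1 mice.

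Zhx2, a repressor of Afp and H19 in the adult liver, was well above background on 1 of 28 arrays, that of a C3H control animal at 0.72. Among 15 regulators of Afp and H19 and members of the albumin family, 0 of 14 tested rose in C3H mice and 2 fell, Alb (serum albumin) by 0.71 ± 0.15 and Gc (the vitamin D binding protein) by 0.51 ± 0.12, with a list median of 0.01. Alb lies beside Afp in the same gene cluster. In CD-1 mice 1 of 14 fell, Alb by 1.97 ± 0.36 (median -0.29). The shares of all tested probes that fell were 6.87% in C3H, 6.06% in CD-1 and 22.1% in hCAR/hPXR mice, where 33.9% rose. Trim28 and Zbtb20 in hCAR/hPXR mice rose by 0.42 and 0.27, Zfp57 fell by 0.69, and 0 of the 14 passed with the slide as a block (median 0.07).

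A list of further fetal and tumour markers of the liver had 17 genes tested in C3H mice, of which 6 rose and 0 fell (median 1.36). Of all tested C3H probes 7.21% rose. Cbr3, a carbonyl reductase, rose 13.2-fold, Prom1, a progenitor cell marker, 24.4-fold, Mki67, a marker of dividing cells, 21.4-fold, and Ly6d, a membrane protein, 384-fold. In hCAR/hPXR mice 7 of 15 rose and 0 fell (median 0.76), with Prom1 up 102-fold and Cbr3 15.3-fold, and 3 were still higher in the slide-blocked fit. In CD-1 mice 2 of 12 rose, Prom1 and Lcn2 (median 0.50). Of all tested probes 33.9% rose in hCAR/hPXR and 1.81% in CD-1 mice.

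Most pericentral hepatocyte markers also rose in C3H mice, where 7.21% of all tested probes rose. Of 8, 6 rose and 0 fell (median 2.55, or 2.40 with Axin2, whose control arrays were all below background, at its bound), among them Glul, glutamine synthetase, by 3.18 ± 0.29, and Rhbg, an ammonium carrier, by 3.75 ± 0.34. Tbx3 did not pass at 1.42 ± 0.48 (limma adjusted p = 0.0897), and Cyp2e1 stood at -0.0004 ± 0.32 (limma adjusted p = 0.999). The mean log2 level of all 8 was 4.08, 4.13 and 4.26 in the C3H controls and 5.84, 6.83 and 6.83 in PB animals 1, 2 and 3. For hCAR/hPXR livers it was 4.05 to 4.42 in controls and 4.14 to 4.89 with PB, with 4 markers higher and 1 lower (0 and 1 with the slide as a block). In CD-1 mice it was 1.64 to 2.42 in controls and 0.98 to 1.34 with PB, and 3 of 8 fell. Of all tested hCAR/hPXR probes 33.9% rose. General hepatocyte markers fell in 4 of 6 cases in C3H mice, where 6.87% of all tested probes fell, their mean level going from 8.78 to 8.90 in controls to 7.16 to 8.28 with PB. They fell in 3 of 6 in CD-1 mice (6.83 to 7.55 in controls, 5.33 to 6.60 with PB), where 6.06% of all tested probes fell. Of 6, 0 passed in hCAR/hPXR mice (7.80 to 8.13 and 7.70 to 8.08), where 22.1% of all tested probes fell. Their part in the results on Dlk1, Meg3, Mirg, Afp and Gpc3 was not tested.

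Markers of other liver cells were counted in the same way. Of all tested probes 7.21% rose and 6.87% fell in C3H, 33.9% and 22.1% in hCAR/hPXR, and 1.81% and 6.06% in CD-1 mice. Of stellate cell and fibroblast genes 0 of 6 tested passed by limma in C3H mice and 3 had an unadjusted p under 0.05, with mean levels of 0.36 to 0.88 in controls and 0.21 to 0.9996 with PB, and the same counts held for 6 Kupffer cell genes (2.25 to 2.76 and 1.86 to 2.22). Of 6 endothelial genes Lyve1 rose and Kdr and Ptprb fell (3.16 to 3.19 and 2.95 to 3.09). Of 3 tested bile duct genes Krt19 rose by 2.90 ± 0.51 on the log2 scale and Sox9, measured on no PB array, fell at least 4.43-fold (-1.998 to -1.40 and -2.91 to -1.96), with Epcam not well above background in either group, and 0 of 3 red cell precursor genes passed (0.52 to 0.71 and 0.14 to 0.54). In hCAR/hPXR mice 2 stellate genes rose and 1 fell of 7, 3 Kupffer genes of 6 rose, 2 bile duct genes of 3 rose, and 0 of each passed with the slide as a block. Endothelial genes there gave 2 higher and 1 lower of 6, and red cell precursor genes 0 of 3. In CD-1 mice 1 of 6 endothelial genes fell, and 0 stellate, Kupffer, bile duct or red cell precursor genes passed of 7, 5, 4 and 3 tested.

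Meg3 and Mirg had a probe well above background on all 28 arrays, which allowed genes of like pattern to be listed. The measure was Pearson's r over the 28 arrays of the deviation from the strain's mean, among 8350 genes detected on all arrays, given as a description. All points share the scaling and, within a strain, the PB contrast. For Meg3 A_51_P455997 the closest were Maged2, of the MAGE family (r = 0.926), Lhpp, a phosphatase (0.888), and Zfp688, a zinc finger gene (0.882). For Mirg they were Tuba8, a tubulin (0.908), Rhbg (0.904) and Igf2r (0.897). Lhpp and Rhbg are also on the pericentral marker list.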

How the data were processed

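Liver RNA of 28 mice was measured on 1-colour Agilent arrays. Each array's values are intensity, background-subtracted and detrended by Feature Extraction 10.7.3.1, per the file headers. The authors' deposited table holds log2 values, which equalled the log2 values computed here plus a constant for each array (-0.0102 to 0.0233). Spots marked as outliers (109 to 430 an array) did not enter, saturation occurred nowhere, and the 75th percentile of 55681 probes was subtracted from log2 signals. Accessions named 26582 probes through RefSeq, GRCm38.p6. The number of arrays limits the precision.

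Probes well above background on every array of 1 or more groups were tested within each strain by limma 3.58.1 (R 4.3.3, lmFit and eBayes, two-sided), and differences between strains in 1 fit of all arrays, with Benjamini-Hochberg adjustment over all tested probes, a threshold of 0.05 and checks on simulated data. Lists used 1 probe per gene, the brightest. Each list's result stands in the report, with its called genes of smallest adjusted p, at most 4. Cyp2b10, Zhx2, Igf1, Igf2r, Dio3 and Rtl1 and the 3 genes most like a member were named by rule. The genes and lists were chosen with earlier results of these data known. Nothing in the labels shows that equal replicate numbers pair animals. The correlations of same-numbered animals ran from -0.44 to 0.25, so no pairing was used.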

Additional observations from a re-analysis of the deposited data

Results flagged for a closer look

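In hCAR/hPXR mice, 3 Dlk1 values stood far from the rest of their group: A_55_P2105371 in PB animal 5 (-1.79, the one array of 14 well above background), A_66_P117477 in control animal 6 (-5.13) and A_66_P117477 in PB animal 3 (-4.39), both A_66_P117477 values not well above background. Chance marks about 1 in 20 groups, and 30 groups of values were examined.

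The PB effect differed between experiments, by the interaction test, for these probes (log2 differences). Against CD-1, the hCAR/hPXR effect was larger by 2.90 for Meg3 A_51_P455997. Against CD-1, the C3H effect was larger by 4.86, 3.26 and 3.77 for Meg3 A_51_P455997, A_52_P196568 and A_55_P2033407, by 3.92 for Mirg, by 3.54 and 4.96 for Dlk1 A_55_P2105371 and A_66_P117477, by 3.99 for Afp and by 4.03 for Gpc3. Against hCAR/hPXR, the C3H effect was larger by 1.96 and 3.22 for Meg3 A_51_P455997 and A_52_P196568, by 3.05 for Mirg, by 3.34 and 4.64 for the Dlk1 probes in the same order, by 2.87 for Afp and by 4.52 for Gpc3. All 4 groups compared were measured on every array for Meg3 A_51_P455997, Mirg and, against hCAR/hPXR, Afp. The other values include signals below background. Gpc3, Dlk1 A_55_P2105371 and, against hCAR/hPXR, Meg3 A_52_P196568 entered these tests only by being high in the C3H PB group. Strain, dose, time, carcinogen and slide cannot be told apart in the differences from C3H, nor strain, dose and slide between hCAR/hPXR and CD-1.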

How the results depend on the processing

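All directions of the C3H and hCAR/hPXR member effects were the same under every alternative run. In C3H mice 5 of the 8 called probes stayed called with 1 probe per gene or the strict filter, which test 5, and 5 to 8 with 1 animal left out. Without a filter 6 did, Afp and Gpc3 being lost. Calls over all C3H probes numbered 655 without a filter, 1873 with a replicate block and 712 to 6469 with 1 animal left out, against 3262. The replicate block left 6 C3H members, losing Gpc3 and Dlk1 A_55_P2105371, and changed no member call in the other strains. Each C3H control correlated best with its own number, a hint from the data and not the design. In hCAR/hPXR mice 8 members passed without a filter (7 higher, and Igf2, measured on no array, lower), 3 with the strict one, and 0 with the slide as a block or with 1 slide only (506 and 339 calls over all probes, against 14514). In CD-1 mice, with 0 otherwise, 1 member passed in 4 settings: Meg3 A_51_P455997 with quantile normalization or the strict filter, and Igf2, measured on no PB array, without a filter or without control animal 3, its control below background. Calls over all CD-1 probes numbered 5837 with normexp, 1411 with the replicate block and 1226 to 2794 with 1 animal left out, against 2535.

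Mirg in CD-1 ran from -0.16 to 0.22 with 1 animal left out, below 0 at -0.16 (control 1), -0.03 (control 3) and -0.16 (PB 2). The hCAR/hPXR minus CD-1 difference of Meg3 A_52_P196568, 0.05, became -0.59 with quantile normalization, -0.32 with normexp, -0.46 with 1 hCAR/hPXR slide, and ran from -0.21 to 0.30 with 1 animal left out. The count of members differing there was 2 with quantile normalization or normexp, 0 with 1 slide and 1 to 3 with 1 animal left out. C3H minus CD-1 gave 2 with the strict filter and 5 with 1 probe per gene, and C3H minus hCAR/hPXR 3 with the strict filter. The causes were not tested. Signal over background limits Igf2, Peg3, Gpc3 and Dlk1 outside C3H.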
